A study of Canis lupus familiaris with 6 samples.

Results

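The 38 genes described here carry out or regulate glycolysis, or respond to low oxygen through the hypoxia-inducible factors (HIF). They were chosen by name: 3 glucose and lactate transporters, 16 glycolytic enzymes, 3 regulators of glycolytic flux, 4 HIF subunits and oxygen sensors, and 12 HIF targets outside glycolysis. All 38 had at least 1 probe set annotated to them alone, 82 probe sets together, of 15153 such genes and 42860 probe sets in the table. RNA came from bone specimens of the mandible of beagle dogs aged 9 years. Premolars had been extracted, the jaw had healed for 3 months, and holes 4.5 mm in diameter and 8 mm long were then drilled in every group. The holes were left without filling (control) or received beta-TCP, beta-tricalcium phosphate, a resorbable ceramic used as a bone substitute. Cylinders of the same size were collected at 4, 7 and 14 days, and 100 ng of total RNA was labelled for an Affymetrix array. Each of the 6 groups holds 1 array, and how many animals there were, and which specimens shared one, is not given in the sources used here.

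Glycolysis breaks glucose down to pyruvate in the cytosol, and cells that are short of oxygen or inflammatory cells that have been activated turn much of that pyruvate into lactate and export it. HIF alpha subunits are hydroxylated by oxygen-dependent prolyl hydroxylases and then destroyed, so HIF is controlled largely at the protein level. When oxygen is scarce the subunits persist and raise transcription of glucose transporters, most glycolytic enzymes, and genes of vessel growth, mitophagy and pH control. A fresh bone wound is poorly perfused until new vessels grow in, and neutrophils, which enter it early, rely mainly on glycolysis.

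Levels are given as log2(value + 1), where the value is a probe set's deposited signal divided by the median of its array, so that a level of 1 equals the array median. On this scale the difference of a weakly expressed gene is understated, and levels of different probe sets are not comparable with one another. Differences are beta-TCP minus control unless stated otherwise, and 2-fold means 1 log2 unit. A difference on a single day rests on 1 array against 1 array, with no replicate check and no p-value, and the number of arrays limits the precision of every value below. The beta-TCP array of day 14 stood apart, with Spearman correlations of 0.723 to 0.779 with the other 5 arrays, against 0.832 to 0.905 among those 5. The deposited values of day 14 also carry a different scale from those of days 4 and 7, so time and processing cannot be told apart for day 14. Of 12 markers of osteoblasts and osteocytes 11 were measured. They summed to 1840, 2467 and 2721 array medians in control at days 4, 7 and 14, and 2031, 2582 and 4685 with beta-TCP. Of these sums 87.8% to 99.4% came from COL1A1, COL1A2 and SPP1, which granulation tissue and macrophages also express. Without these 3 genes the sums were 11.5, 71.6 and 43.7 in control and 41.8, 314 and 84.7 with beta-TCP. Both ways, the sum lay higher with beta-TCP on each day. Without the 3 genes it rests mainly on IBSP and ALPL, and at day 4 the single markers were divided. With beta-TCP, IBSP (2.50), ALPL (1.39), SPP1, COL1A2 and SOST then lay higher. BGLAP (-0.60), PHEX (-0.33), DMP1 (-0.30), RUNX2, MEPE and COL1A1 lay lower. The more defining genes were low on some arrays. On the day 4 control array IBSP lay at 2.54. ALPL lay there at 1.48, PHEX at 1.10, BGLAP at 0.81, DMP1 at 0.74 and SOST at 0.64. On the day 7 beta-TCP array IBSP lay at 7.98. ALPL lay there at 5.37, PHEX at 2.60, BGLAP at 2.57, DMP1 at 1.955 and SOST at 0.62. The osteocyte gene MEPE lay at 0.07 to 0.20 on 4 of the arrays, and at 3.11 and 2.70 on the beta-TCP arrays of days 7 and 14.

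The first question was how the beta-TCP site differed from the control hole on each day. Most of the 38 genes lay lower with beta-TCP on all days, and none lay 2-fold higher on any of them. At day 4, 32 of 38 lay lower, with a median difference of -0.44, and 6 were at least 2-fold lower. Over all 15153 genes the median was 0.07 and 42.55% lay lower, with 2.42% at least 2-fold lower and 3.21% at least 2-fold higher. At day 7, 30 of 38 lay lower, with a median of -0.63, and 13 were at least 2-fold lower. The median of all genes was -0.05 and 56.62% lay lower, with 2.56% at least 2-fold lower and 2.20% at least 2-fold higher.

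At day 14, 33 of 38 lay lower, with a median of -0.71, and 13 were at least 2-fold lower. On that day the lower tail of all genes was also heavier, with 11.0% at least 2-fold lower and 3.66% at least 2-fold higher. Their median was -0.09, and 57.2% lay lower. The genes described are mostly well expressed, which bears on this share. Among the 2687 genes at or above their median level of 3.95, 3.39%, 5.21% and 21.7% were at least 2-fold lower at days 4, 7 and 14. The 19 members in that range gave 5, 12 and 8 genes at least 2-fold lower. Their medians were -0.58, -1.17 and -0.84, beside 0.37, -0.15 and -0.42 for all genes in the range.

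Across the days, 23 of the 38 genes lay lower with beta-TCP on all 3, against 13.9% of all genes. The transporters SLC2A1 and SLC2A3 and the HIF targets ADM and ERO1A were at least 2-fold lower on all 3 days. Of all genes, 40 met that rule, or 0.264%. ADM and ERO1A alone met the rule after quantile normalization and after scaling to the 90th percentile. The array reads genes with probe sets whose names start with Cfa or with CfaAffx. With Cfa probe sets alone 27 of the 38 genes can be read, ADM and ERO1A not among them, and SLC2A1 and SLC2A3 met the rule. With CfaAffx probe sets alone 33 can be read, and ADM and ERO1A met it. The plot of differences by gene shows all 38.

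**Figure D1:**
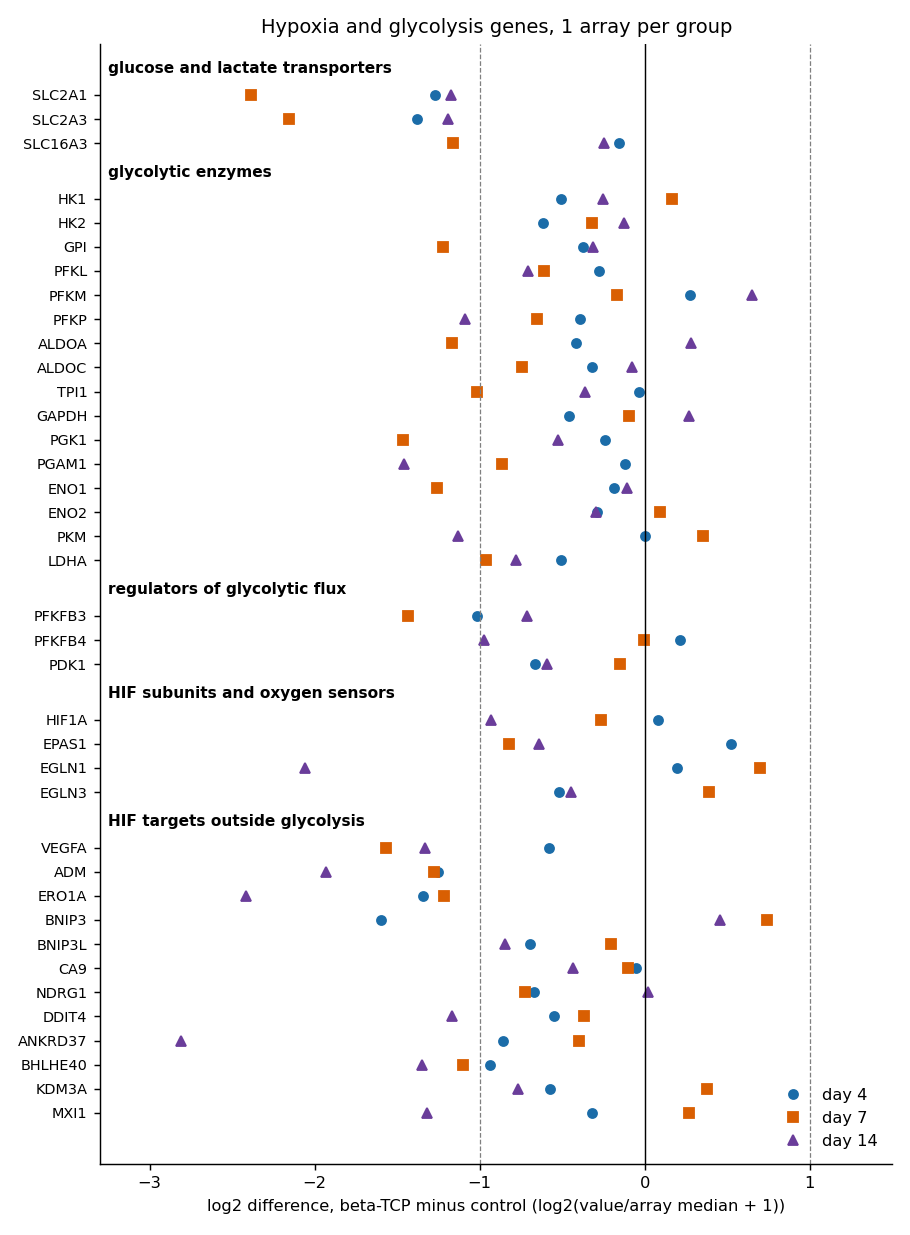
Difference of log2(value/array median + 1), beta-TCP minus control, for each of the 38 genes at day 4 (circles), day 7 (squares) and day 14 (triangles), with 1 array per group; dashed lines mark 2-fold. No point lies beyond the 2-fold line on the right, and ADM, ERO1A, SLC2A1 and SLC2A3 lie beyond it on the left on all 3 days.

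The average effect over the days was tested with limma, fitting the day and the treatment together on the 6 arrays, over the 10550 genes above a low-level filter. Of the 38 genes 37 passed the filter, and PFKFB4, a regulator of fructose 2,6-bisphosphate, did not. The averaged difference was below 0 for 36 of the 37, and for 56.81% of all genes past the filter. With Benjamini-Hochberg adjustment over all genes, limma called 0% of genes at an adjusted p under 0.05 and 0 of the 37. At an unadjusted p under 0.05 it listed 513 genes, 11 of them among the 37. The lowest adjusted p among the 37 was 0.257, shared by SLC2A1, SLC2A3, ADM and ERO1A. The fit has 2 residual degrees of freedom, and differences of the effect between days enter its error. Without the day 14 arrays it called 227 genes, among them SLC2A1, SLC2A3, ADM, ERO1A and PFKFB3, all lower, on 1 residual degree of freedom. Without the day 4 or the day 7 arrays it called 14 and 29 genes, and 0 of the 37 in both cases.

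The transporters set the entry of glucose and the exit of lactate. SLC2A1 encodes GLUT1, the widespread basal glucose transporter. Its level was 5.50, 5.89 and 4.34 in control at days 4, 7 and 14, and 4.23, 3.50 and 3.17 with beta-TCP. All 3 beta-TCP arrays lay below all 3 control arrays. Here and below, such separation refers to the probe set that stands for the gene, and its share over all genes was not counted. The difference was -1.27, -2.38 and -1.17 at days 4, 7 and 14, averaging -1.61 ± 0.34 (SE; limma, adjusted p = 0.257). All 3 probe sets of SLC2A1 lay lower on all 3 days.

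SLC2A3 encodes GLUT3, a high-affinity glucose transporter abundant in neurons and leukocytes. Control arrays read 8.49, 7.40 and 7.15 at days 4, 7 and 14, and beta-TCP arrays 7.11, 5.24 and 5.95. Here too the groups did not overlap. The difference was -1.38, -2.15 and -1.19, averaging -1.58 ± 0.33 (SE; limma, adjusted p = 0.257). All 4 of its probe sets lay lower at days 4 and 7, and 3 of the 4 at day 14.

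SLC16A3 encodes MCT4, the transporter that exports lactate from glycolytic cells. It read 1.94, 2.52 and 1.46 in control and 1.78, 1.36 and 1.22 with beta-TCP. The difference was 2-fold at day 7 alone, at -1.17, beside -0.16 and -0.25 at days 4 and 14, and the groups overlapped across days. At day 14 its direction turned under another scaling.

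**Figure D2:**
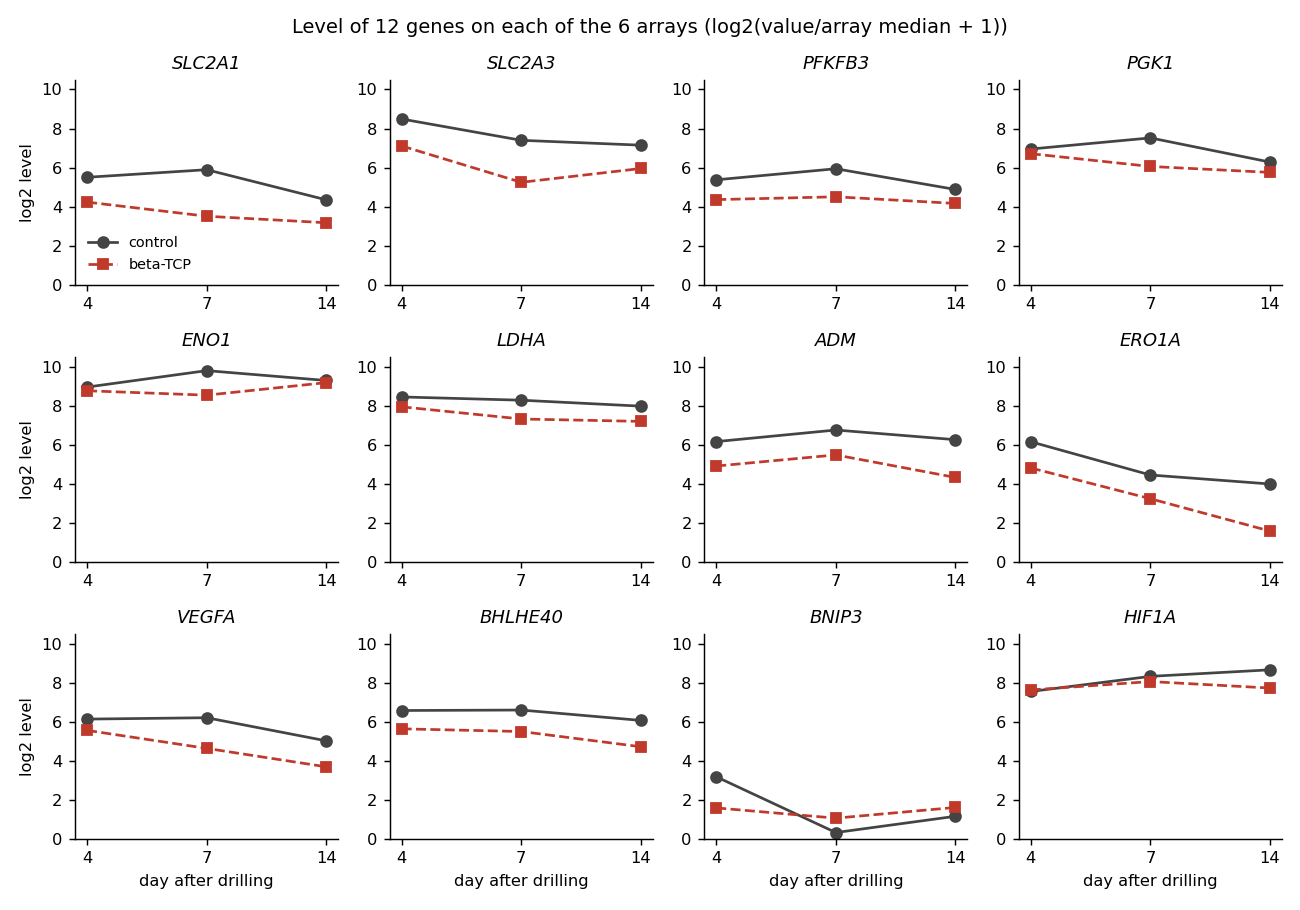
Level, as log2(value/array median + 1), of 12 of the genes on each of the 6 arrays against the day after drilling, for control (grey circles, solid line) and beta-TCP (red squares, dashed line), with 1 array per point. SLC2A1 and SLC2A3 run below control on every day, and BNIP3 crosses between day 4 and day 7.

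For the 16 glycolytic enzymes, the day with the largest difference depended on the probe set. On the probe sets that stand for the genes, the numbers lying lower were 14, 13 and 13 of 16 at days 4, 7 and 14. The numbers at least 2-fold lower were 0, 5 and 3. Of all genes, 42.55%, 56.62% and 57.2% lay lower, and 2.42%, 2.56% and 11.0% were at least 2-fold lower. At day 14 the enzyme share was 18.75%, beside 21.7% of genes at or above the median level of the 38. Median differences of the enzymes were -0.31, -0.70 and -0.30, beside 0.17, -0.08 and -0.23 for all genes past the filter. For the 9 enzymes read by both kinds of probe set, the medians were -0.28, -0.87 and -0.52 with Cfa and -0.24, -0.74 and -1.57 with CfaAffx probe sets. The day 14 value also depended on the scaling: scaled to the 90th percentile the median was 0.08, with 7 of 16 lower, and after quantile normalization it was -0.07, with 9 of 16 lower. At day 7 the same settings gave 13 of 16 lower, with medians of -0.61 and -0.66.

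The upper, energy-consuming steps of the pathway were mixed. HK2, the inducible hexokinase that traps glucose in the cell, read 2.14, 1.19 and 1.44 in control and 1.52, 0.87 and 1.31 with beta-TCP, with differences of -0.62, -0.32 and -0.12. HK1, the constitutive hexokinase, differed by -0.51, 0.17 and -0.25. Neither reached 2-fold on any day, and both turned direction at day 14 under another scaling.

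GPI converts glucose 6-phosphate to fructose 6-phosphate. It read 6.29, 6.90 and 6.06 in control and 5.92, 5.68 and 5.75 with beta-TCP. The groups did not overlap, and the difference was largest at day 7, at -1.22, beside -0.38 and -0.31 at days 4 and 14. The day 14 difference changed sign under another scaling.

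Phosphofructokinase, the committed step, is built from 3 subunits with separate genes. PFKP, the platelet form, read 2.04, 2.25 and 1.29 in control and 1.64, 1.60 and 0.20 with beta-TCP, with differences of -0.39, -0.65 and -1.09. PFKL, the liver form, differed by -0.28, -0.61 and -0.71, and its 4 probe sets ranged from -2.03 to -0.71 at day 14. PFKM, the muscle form, ran the other way on 2 days, with 0.27, -0.17 and 0.65. None of the 3 was 2-fold apart before day 14.

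ALDOA, which splits fructose 1,6-bisphosphate, read 8.26, 8.66 and 7.61 in control and 7.85, 7.49 and 7.89 with beta-TCP. It was 2-fold lower at day 7, at -1.17, and lay above control at day 14, at 0.28, beside -0.42 at day 4. ALDOC, its brain-type relative, differed by -0.32, -0.75 and -0.08, and the last of these turned under another scaling. TPI1, which interconverts the triose phosphates, read 5.55, 6.47 and 6.13 in control and 5.52, 5.46 and 5.76 with beta-TCP. On the probe set that stands for it, differences of -0.03, -1.01 and -0.36 put day 7 alone past 2-fold. The day 14 value turned under another scaling. The CfaAffx probe set of TPI1 gave 0.07, -0.17 and -1.70.

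At the lower, energy-yielding steps PGK1 and ENO1 had their largest difference at day 7 on the probe sets that stand for them, and ENO1 at day 14 on its CfaAffx probe set. PGK1, which makes the first ATP of the pathway, read 6.95, 7.52 and 6.28 in control and 6.71, 6.05 and 5.75 with beta-TCP, with differences of -0.24, -1.46 and -0.53. ENO1, which forms phosphoenolpyruvate, read 8.95, 9.79 and 9.29 in control and 8.76, 8.54 and 9.18 with beta-TCP. It differed by -0.19, -1.26 and -0.11, and the control array of day 7 held its highest value. All 4 probe sets of ENO1 lay lower at days 4 and 7, and its day 14 difference of -0.11 turned under another scaling. Its CfaAffx probe set gave -1.45 at day 7 and -2.84 at day 14.

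PGAM1, the phosphoglycerate mutase between them, had its largest difference at day 14. It read 8.72, 8.80 and 8.69 in control and 8.60, 7.94 and 7.23 with beta-TCP, and differed by -0.12, -0.87 and -1.46. On the probe set that stands for PGAM1, control was nearly level over the days, and all 3 beta-TCP arrays lay below control. Its CfaAffx probe set read 6.34, 5.31 and 4.62 in control and differed by 0.28, -0.26 and -3.07. LDHA, which reduces pyruvate to lactate, read 8.44, 8.28 and 7.97 in control and 7.94, 7.31 and 7.19 with beta-TCP. It stayed short of 2-fold on the probe set that stands for it, at -0.51, -0.96 and -0.78, with no overlap between the groups. Both probe sets of LDHA lay lower on each day, and the CfaAffx probe set was past 2-fold at day 14, at -1.71.

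PKM, pyruvate kinase, which yields pyruvate and ATP, read 3.60, 2.09 and 2.14 in control and 3.60, 2.44 and 1.01 with beta-TCP. The difference was 0.00, 0.35 and -1.13, and its direction at day 4 turned with the scaling. ENO2, the neuronal enolase, lay within 0.30 of control on all 3 days. GAPDH, the glyceraldehyde phosphate dehydrogenase often used as a reference, was read by 1 probe set at levels of 0.26 to 1.72, and its differences were -0.46, -0.09 and 0.26.

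Flux is also set by enzymes beside the main path. PFKFB3 makes fructose 2,6-bisphosphate, a strong activator of phosphofructokinase. It read 5.37, 5.94 and 4.88 in control and 4.36, 4.50 and 4.16 with beta-TCP, and all beta-TCP arrays lay below all control arrays. It differed by -1.01, -1.44 and -0.72, averaging -1.06 ± 0.31 (SE; limma, adjusted p = 0.548). PDK1, which shuts off pyruvate dehydrogenase and so keeps pyruvate from the mitochondria, read 6.42, 6.01 and 6.50 in control and 5.76, 5.86 and 5.91 with beta-TCP. Its differences of -0.67, -0.15 and -0.59 stayed short of 2-fold. PFKFB4, at levels of 0.09 to 1.06, differed by 0.21, 0.00 and -0.97, with the day 7 sign depending on the scaling.

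The subunits and sensors of the HIF system showed no common direction that held across probe sets. HIF1A, the oxygen-regulated alpha subunit, read 7.55, 8.33 and 8.66 in control and 7.63, 8.06 and 7.73 with beta-TCP, with differences of 0.08, -0.27 and -0.93, the first of which turned under another scaling. EPAS1, which encodes HIF-2 alpha and is strong in endothelium, read 1.04, 2.96 and 1.67 in control and 1.57, 2.14 and 1.02 with beta-TCP. It lay higher at day 4, by 0.52, and lower at days 7 and 14, at -0.82 and -0.64.

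EGLN1 encodes PHD2, the main prolyl hydroxylase that marks HIF alpha for destruction. It read 1.88, 1.88 and 2.12 in control and 2.08, 2.58 and 0.07 with beta-TCP, so the day 14 difference of -2.06 rests on a single value near 0. Its other probe set, a Cfa probe set at levels of 0.44 to 1.15, differed by 0.49 on that day. EGLN3, which encodes PHD3 and is itself a HIF target, read 2.30, 0.27 and 0.92 in control and 1.78, 0.66 and 0.47 with beta-TCP. Its differences were -0.52, 0.39 and -0.45. On the probe sets that stand for them, 1 of the 4 genes lay lower at day 4, 2 at day 7 and all at day 14. Each of the 4 has another probe set that lay higher at day 14: by 0.61 for HIF1A and 0.49 for EGLN1, both above the filter, and by 0.66 for EGLN3 and 0.47 for EPAS1, both below it.

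The 12 HIF targets outside glycolysis were spread more widely. All 12 lay lower at day 4, 9 at day 7 and 10 at day 14, and 3, 4 and 7 were at least 2-fold lower. Beside them, 42.55%, 56.62% and 57.2% of all genes lay lower, and 2.42%, 2.56% and 11.0% were at least 2-fold lower. Among genes at or above the median level of the 38, the 2-fold share at day 14 was 21.7%. Median differences of the 12 targets were -0.68, -0.38 and -1.24. The counts lying lower were 12, 9 and 10 under quantile normalization and 90th percentile scaling as well, with medians at day 14 of -0.86 and -0.92.

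VEGFA, the vascular endothelial growth factor, read 6.13, 6.20 and 5.02 in control and 5.56, 4.63 and 3.69 with beta-TCP. It differed by -0.58, -1.57 and -1.33, averaging -1.16 ± 0.33 (SE; limma, adjusted p = 0.480), with both probe sets lower on each day. ADM, which encodes the vasodilator peptide adrenomedullin, read 6.15, 6.75 and 6.25 in control and 4.90, 5.47 and 4.32 with beta-TCP. The groups did not overlap, and control stayed within a narrow span. ADM differed by -1.25, -1.28 and -1.93, averaging -1.49 ± 0.32 (SE; limma, adjusted p = 0.257).

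ERO1A, the oxidase that drives disulfide formation in the endoplasmic reticulum, lay lower on each later day in both treatments. It read 6.15, 4.44 and 3.98 in control and 4.80, 3.23 and 1.57 with beta-TCP. On each day beta-TCP lay below control, although the day 4 beta-TCP array lay above the later control arrays. The difference was -1.34, -1.22 and -2.41, averaging -1.66 ± 0.34 (SE; limma, adjusted p = 0.257).

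BHLHE40, a transcriptional repressor induced by HIF, read 6.57, 6.60 and 6.07 in control and 5.64, 5.50 and 4.72 with beta-TCP. The groups did not overlap, with differences of -0.94, -1.10 and -1.35 and an average of -1.13 ± 0.31 (SE; limma, adjusted p = 0.441). At day 7, 2 of its 3 probe sets lay lower, and the other lay higher, by 0.52. ANKRD37, an ankyrin repeat protein listed among HIF targets, read 6.37, 4.65 and 5.22 in control and 5.51, 4.25 and 2.41 with beta-TCP. Its differences were -0.86, -0.40 and -2.81, so most of its average of -1.36 ± 0.44 (SE; limma, adjusted p = 0.634) came from day 14.

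BNIP3, which takes part in mitophagy, turned direction between days. It read 3.18, 0.32 and 1.15 in control and 1.58, 1.06 and 1.61 with beta-TCP, and differed by -1.60, 0.74 and 0.45. The control array of day 4 stood above all others, and only 1 probe set read the gene. BNIP3L, its relative, lay lower on each day, at -0.70, -0.20 and -0.84. DDIT4, an inhibitor of mTOR signalling, read 2.46, 1.80 and 1.26 in control and 1.91, 1.43 and 0.09 with beta-TCP, with differences of -0.55, -0.37 and -1.17.

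MXI1, an antagonist of MYC, read 3.38, 3.32 and 3.58 in control and 3.06, 3.58 and 2.27 with beta-TCP. It was past 2-fold at day 14 alone, with differences of -0.32, 0.27 and -1.32. NDRG1, a stress-response gene, read 1.65, 1.70 and 0.45 in control and 0.98, 0.98 and 0.47 with beta-TCP, and differed by -0.67, -0.72 and 0.02. KDM3A, a histone demethylase, differed by -0.58, 0.38 and -0.77. CA9, the carbonic anhydrase widely used as a marker of hypoxia, lay near the array median, at 1.17, 0.99 and 1.78 in control and 1.11, 0.89 and 1.35 with beta-TCP. Its differences were -0.06, -0.10 and -0.43.

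Glycolytic enzymes and HIF targets outside glycolysis were then set side by side. HIF targets lay further below control than enzymes at day 4, with a difference of medians of -0.38, and at day 14, with -0.94. At day 7 the order was the other way, with 0.31. No test applies to these values. The day 4 order held under every alternative tried. The day 7 order turned with CfaAffx probe sets alone (-0.09) and the day 14 order with Cfa probe sets alone (0.01). Of the 16 enzymes 10, and of the 12 HIF targets 8, lay lower on all 3 days. None of the enzymes and 2 of the HIF targets were at least 2-fold lower on all 3.

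**Figure D3:**
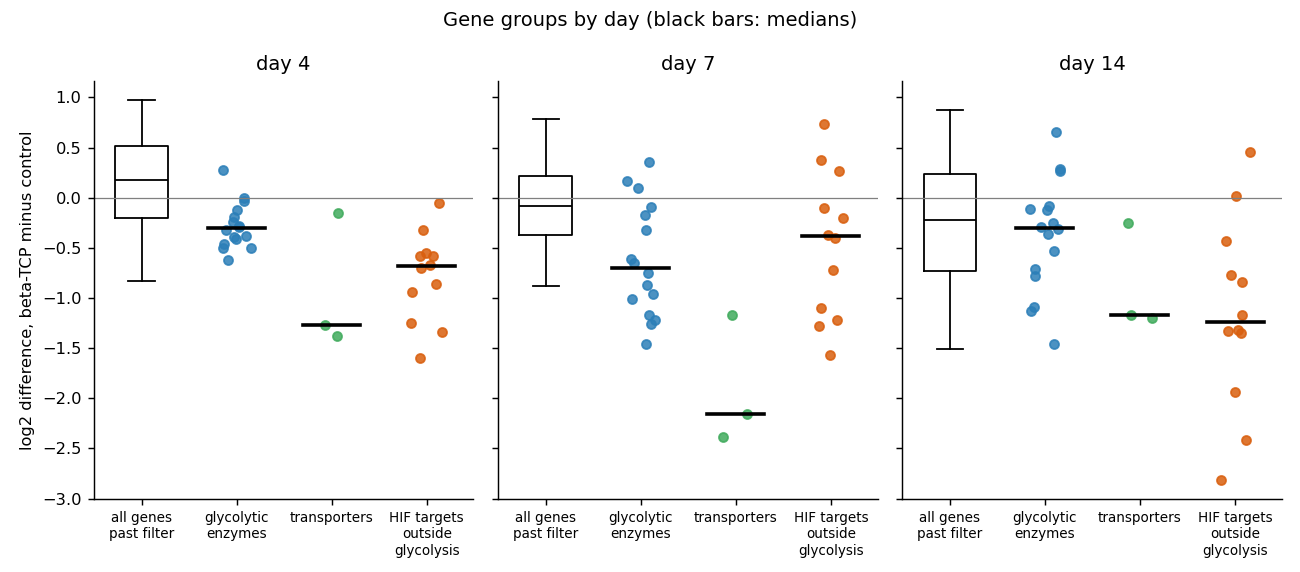
Difference of log2 level, beta-TCP minus control, for the 16 glycolytic enzymes, 3 transporters and 12 HIF targets outside glycolysis at days 4, 7 and 14 (points are genes, black bars medians), beside the 10550 genes past the filter (box: quartiles and median; whiskers: percentiles 5 and 95). On the probe sets plotted, the enzyme median is lowest at day 7 (-0.70) and the HIF target median at day 14 (-1.24).

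The kind of probe set mattered for several genes, most at day 14. Of the 38 genes, 18 have a Cfa and a CfaAffx probe set above the filter. The 2 kinds gave the same sign for 13, 16 and 14 of the 18 at days 4, 7 and 14. Medians were -0.42, -0.81 and -0.71 with Cfa and -0.44, -0.44 and -0.99 with CfaAffx probe sets. At day 14 ENO1 differed by -0.11 on its Cfa probe set and by -2.84 on its CfaAffx probe set. ALDOA gave 0.28 and -1.57, and PGAM1 -1.46 and -3.07. HIF1A gave -2.38 and 0.61 on its 2 Cfa probe sets and -0.93 on the CfaAffx probe set, which stands for the gene here. SLC2A3 gave -1.19 and 0.22, and PFKFB3 -0.72 and 0.44. At day 7 SLC2A3 lay lower on both kinds, by -2.15 and -0.67. The part of probe position in the day 14 values was not tested.

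**Figure D4:**
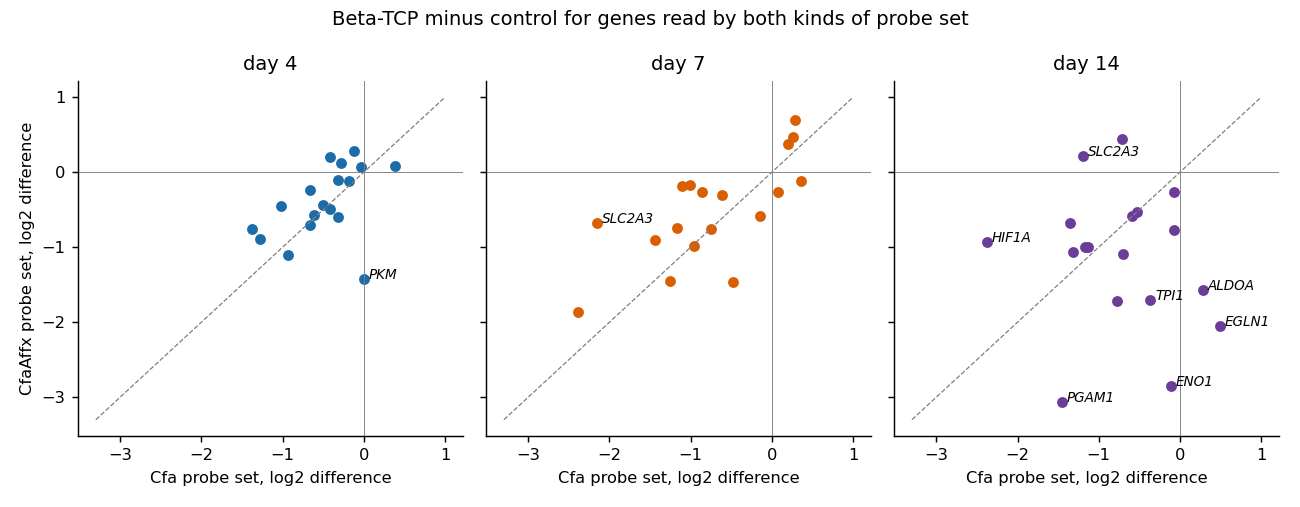
Difference of log2 level, beta-TCP minus control, on the CfaAffx probe set (vertical axis) against the Cfa probe set (horizontal axis) of the 18 genes read by both, at days 4, 7 and 14; the dashed line marks equal values and names mark the genes farthest from it. Points scatter most at day 14, where ENO1, PGAM1 and ALDOA lie far below the line.

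The second question was how levels differed between days. Day 4 arrays are shared by the comparisons within a treatment, so the values are given side by side. In control, 2 of the 38 genes were at least 2-fold higher and 8 at least 2-fold lower at day 7 than at day 4, beside 11.3% and 3.57% of all genes. From day 4 to day 14 the counts in control were 1 and 11, beside 13.2% and 5.77%. With beta-TCP the counts were 0 and 5 from day 4 to day 7, beside 3.59% and 1.89%. From day 4 to day 14 with beta-TCP they were 1 and 13, beside 8.14% and 12.7%. In each of these comparisons a larger share of the 38 genes than of all genes was at least 2-fold lower.

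HIF targets outside glycolysis made up 7 of the 11 genes at least 2-fold lower in control at day 14 than at day 4, and 6 of the 13 with beta-TCP. The medians of the 12 targets were -1.13 in control and -0.97 with beta-TCP. Of the 16 enzymes, 1 was at least 2-fold lower in control, with a median of -0.44, and 3 with beta-TCP, with a median of -0.19. BNIP3 was lower at day 14 than at day 4 by 2.02 log2 units in control, and EGLN3 by 1.38.

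Averaged over both treatments, limma called 50 genes between day 7 and day 4, or 0.474%, and 0 of the 37 tested, with 9 of them at an unadjusted p under 0.05. Between day 14 and day 4 it called 518 genes, or 4.91%, and 3 of the 37, all lower at day 14. For day 14, time and processing cannot be told apart. ERO1A was lower by 2.70 ± 0.42 log2 units (SE; limma, adjusted p = 0.00589), in both treatments. PKM was lower by 2.02 ± 0.44 (SE; limma, adjusted p = 0.0259) and ANKRD37 by 2.12 ± 0.53 (SE; limma, adjusted p = 0.0471), also in both. ANKRD37 lost its call with scaling within name type. ERO1A is the only one of the 3 still called when the probe sets of a gene are averaged or with pseudocounts of 0.25 and 4, and with no filter on low values 0 were called. Between day 14 and day 7 limma called 0% of genes and 0 of the 37, with 1026 genes, 8 of them among the 37, at an unadjusted p under 0.05.

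Other genes of the same pathways showed how far the pattern extends. Of 28 further reported HIF targets 23 were measured, and their medians were -0.03, -0.12 and -0.75 at days 4, 7 and 14. At least 2-fold lower were 1, 2 and 9 of them, beside 2.42%, 2.56% and 11.0% of all genes. At day 14 that is 39.13% of the 23, beside 21.7% of genes at or above the median level of the 38. PLIN2, which coats lipid droplets, read 7.70, 5.83 and 6.11 in control and 5.84, 4.80 and 4.45 with beta-TCP, and differed by -1.86, -1.03 and -1.66. P4HA1, a collagen prolyl hydroxylase subunit, differed by -0.78, -0.32 and -2.76, and KDM4B, a histone demethylase, by -0.63, 0.03 and -1.76. These further targets therefore lay near the median of all genes at days 4 and 7. The 10 other genes of HIF control and oxygen sensing had medians of 0.11, -0.13 and -0.34, with 1 at least 2-fold lower, ELOB, a subunit of the VHL ubiquitin ligase complex, at -1.45 on day 14. CITED2, which competes with HIF for its coactivator, differed by -0.68, 0.11 and -0.43, and VHL, the recognition subunit of that ligase, by 0.16, 0.62 and 0.09.

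Of 25 other genes of glucose and pyruvate metabolism 23 were measured, with medians of 0.11, -0.11 and -0.23. At least 2-fold lower were 1, 1 and 6 of them, beside 2.42%, 2.56% and 11.0% of all genes. At day 14 that is 26.09% of the 23, near the 21.7% of genes at or above the median level of the 38. PDK4, the pyruvate dehydrogenase kinase of fasting and lipid use, read 5.37, 3.47 and 5.01 in control and 3.60, 2.40 and 1.46 with beta-TCP. It was at least 2-fold lower on all 3 days, at -1.77, -1.08 and -3.54. SLC2A6, the glucose transporter GLUT6, differed by -0.22, -0.81 and -1.37, and PGM2, a phosphopentomutase, by -0.86, -0.33 and -0.83.

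Cell type markers moved beside these genes. Summed over its 3 genes, the transporter group read 405, 230 and 162 array medians in control and 157, 48.8 and 70.2 with beta-TCP at days 4, 7 and 14. The 16 enzymes summed to 1882, 2494 and 1752 in control and 1557, 1154 and 1316 with beta-TCP, and the 12 HIF targets to 469, 364 and 267 and to 246, 184 and 84.6. These sums were not recomputed under other scalings. With 90th percentile scaling the enzyme median at day 14 was 0.08. Neutrophil markers, 8 of 12 measured, summed to 1856, 1467 and 308 in control and 982, 980 and 114 with beta-TCP. They too lay lower with beta-TCP on each day, with 8, 6 and 6 of 8 lower and 3, 4 and 4 at least 2-fold lower. Of all genes, 2.42%, 2.56% and 11.0% were at least 2-fold lower. Among the neutrophil markers TREM1, a receptor of activated neutrophils and monocytes, differed by -1.40, -1.20 and -1.87. PADI4, the enzyme that citrullinates histones in neutrophils, differed by -1.84, -1.82 and -0.96. The secreted granule protein LTF read 4.32, 3.80 and 1.25 in control and 2.93, 1.96 and 0.26 with beta-TCP. S100A8 and S100A9 held the highest levels of the 8 on each array, so the sums rest mainly on them. S100A8 differed by -0.80, -0.46 and -1.17, and S100A9 by -0.97, -0.65 and -1.86. CAMP and MMP8, which encode granule proteins, ran the other way after day 4, with -0.45, 0.21 and 2.02 for CAMP and -0.94, 0.16 and 0.42 for MMP8. No measured neutrophil marker was at 0 on every array.

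**Figure D5:**
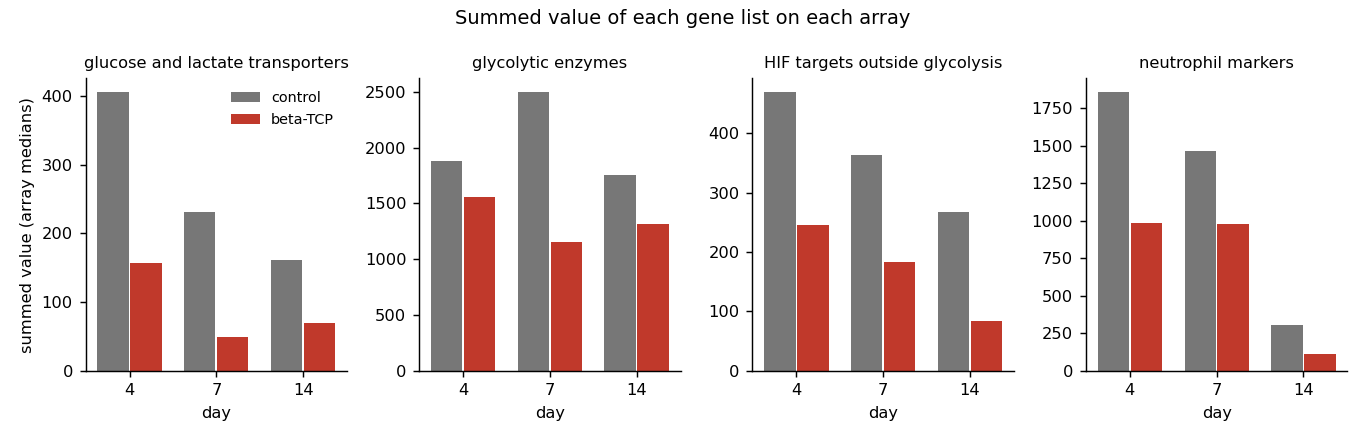
Summed value, in array medians, of the 3 transporters, 16 glycolytic enzymes, 12 HIF targets outside glycolysis and 8 neutrophil markers on each array, by day, for control (grey) and beta-TCP (red), with 1 array per bar and no error bars. On this scaling beta-TCP lies below control in all 4 groups on all 3 days. The sums were not recomputed under other scalings, and several enzymes turned direction at day 14 under them. The transporter sums rest mainly on SLC2A3. The neutrophil sums rest mainly on S100A8 and S100A9.

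Markers of stratified epithelium, 9 of 13 measured, summed to 223, 68.7 and 16.5 in control and 22.3, 50.1 and 28.9 with beta-TCP, so the day 4 control array held the highest value. Osteoclast markers, 8 of 11 measured, summed to 588, 2630 and 904 in control and 699, 1315 and 1790 with beta-TCP. They lay lower with beta-TCP at day 7, as did the enzymes, and higher at day 14. Macrophage markers summed to 281, 585 and 306 in control and 239, 322 and 332 with beta-TCP. The day 14 sum with beta-TCP rests mainly on CD68, which differed by 1.59. CD14, C1QB and C1QC also lay higher on that day. MARCO (-3.40), CD163 (-2.02), MRC1 (-1.66), CD5L, AIF1, CSF1R, C1QA and MSR1 lay lower. Endothelial markers summed to 90.2, 428 and 304 in control and 188, 304 and 412 with beta-TCP. The sums of osteoblast and osteocyte markers, given above, lay higher with beta-TCP on each day, although the single markers were divided at day 4. Markers of fibroblasts and granulation tissue ranged from 1273 to 4236, adipocyte markers from 17.9 to 70.1, cartilage markers from 3.75 to 37.9, skeletal muscle markers from 7.83 to 13.8 and erythroid markers from 4.53 to 10.9. In these bulk specimens fewer cells of a type and less RNA per cell cannot be told apart, and the part of any of these cell types in the differences above was not tested.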

How the data were processed

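Gene expression was measured on 6 arrays in 6 groups, 1 array per group, grouped by treatment and day per the labels. For days 4 and 7 the authors deposited a ratio of each signal to its array's median (medians 1.00, smallest value 0.01), and for day 14 an undivided intensity (medians 12.0 for control and 6.2 for beta-TCP), as read from the values. What software, algorithm and scaling were used is not given in the sources used here.

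Each array was divided by its median over 42860 probe sets and log2(value + 1) was taken. By the probe set annotation, 29254 probe sets have 1 gene, 439 several and 13167 none. Of the 29254, 27680 matched by gene ID to the RefSeq gene table of UU_Cfam_GSD_1.0, from which only names were taken. Each gene is represented by its probe set of highest mean level. Left out were 90 pairs of probe sets whose names differ only in the ending, _a_at or _at; none of them reads a gene described here. For limma 3.58.1 (R 4.3.3; day and treatment as additive terms, 2 residual degrees of freedom; two-sided p, Benjamini-Hochberg over all genes, adjusted p under 0.05), genes below the 40th percentile of mean level (0.70) were dropped. Its p-values measure only the spread among these arrays. The fit was run on simulated data with the same treatment effect on each day. It called 10% of the genes changed by 1 log2 unit, 80% of those changed by 2, and 8 unchanged genes. Differences of the effect between days, which enter the error in the real data, were not simulated.

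The genes, the lists and the alternatives were chosen with earlier results of these data known. All 38 genes are named, with levels on every array for those 2-fold apart on some day and for a fixed set of defining genes. From each other pathway list, and from the neutrophil markers, the 3 genes with the largest mean difference are named. The bone markers, MMP8, CAMP, S100A8 and S100A9 were added after their values were seen. Alternatives covered the pseudocount, the scaling, the probe sets, the filter, the moderation of the variance and each day left out. Promoter and protein sequences were not used here.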

Additional observations from a re-analysis of the deposited data

Results flagged for a closer look

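EPAS1, EGLN1 and BNIP3 drew attention because beta-TCP lay above control on some days and below it on others, by at least 0.5 log2 units each way. The span from the highest to the lowest daily difference, beta-TCP minus control, was 1.34 log2 units for EPAS1 (day 4 minus day 7), 2.76 for EGLN1 (day 7 minus day 14) and 2.34 for BNIP3 (day 7 minus day 4). With 1 array per group, whether the effect differed between days was not tested for any of them. EGLN1 rests on a beta-TCP level of 0.07 at day 14, and its other probe set differed by 0.49 on that day.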

How the results depend on the processing

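Leaving out replicates did not apply, since each group holds 1 array, and the promoter motif search was not run. The limma fit has day as a term, which pairs beta-TCP with control within each day, and the labels carry no replicate numbers for another pairing. Values taken against the all-gene median, the count over all 82 probe sets, and the count on all 3 days were chosen after seeing the data. Of 247 recomputed values, 185 kept their size or call and 2 reversed. The median difference of the 38 genes stayed below 0 on each day under every setting tried. It was -0.66 at day 4 with 90th percentile scaling (-0.44 as reported). At day 7 (-0.63) it was -0.36 with pseudocount 4, -0.38 with the mean of probe sets, -0.30 with CfaAffx probe sets alone and -0.39 (-0.385) over all probe sets. At day 14 (-0.71) it was -0.46 with pseudocount 4, -0.39 with quantile normalization and -0.32 with 90th percentile scaling.

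The number at least 2-fold lower was 10 over all probe sets at day 4 (6 as reported). At day 7 (13) it was 7 with the mean of probe sets and 6 with CfaAffx alone. At day 14 (13) it was 7 with pseudocount 4, 7 with quantile normalization, 6 with 90th percentile scaling and 26 over all probe sets. The number at least 2-fold higher was 1 at day 7 with pseudocount 0.25 and 1 at day 14 with 90th percentile scaling. The number lower on all 3 days by 2-fold (4) was 2 with quantile normalization, 2 with 90th percentile scaling, 2 with Cfa alone, which cannot read ADM and ERO1A, and 2 with CfaAffx alone. Cfa probe sets read 27 of the 38 genes and CfaAffx probe sets 33, so counts with either alone cover fewer genes. HIF targets minus enzymes at day 7 (0.31) was -0.0889 with CfaAffx alone, 0.78 with Cfa alone and 0.52 with the wider groups. At day 14 (-0.94) it was -0.58 with pseudocount 4, -0.24 (-0.245) with the mean of probe sets, -0.30 with CfaAffx alone and 0.0111 with Cfa alone. The causes were not tested.

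For the average effect, limma called 5 of the 37 genes without the day 14 pair, and over all genes (0) it called 3 with Cfa alone and 14, 29 and 227 without the day 4, 7 and 14 pairs. Between days 7 and 4, quantile normalization called 1 of the 37. Over all genes (50) the count was 78 with 90th percentile scaling, 104 with Cfa alone, 115 with quantile normalization and 32 with scaling within name type. It was 0 with CfaAffx alone, with no filter, with the mean of probe sets and with pseudocounts 0.25 and 4. With scaling within name type 3 were called between days 14 and 4, DDIT4 in place of ANKRD37. There (3 of the 37) the count was 7 with 90th percentile scaling, 6 with quantile normalization, 5 with an intensity trend, 1 with the mean of probe sets, 1 with pseudocount 0.25, 1 with pseudocount 4 and 0 with no filter. Over all genes (518) it was 823 with 90th percentile scaling, 845 with quantile normalization, 136 with CfaAffx alone, 19 with no filter, 179 with the mean of probe sets, and 275 and 65 with pseudocounts 0.25 and 4. Between days 14 and 7 over all genes (0) it was 2 with 90th percentile scaling, 12 with Cfa alone, 4 with an intensity trend, 17 with quantile normalization and 22 with the name pairs kept.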

Other observations

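The neighbouring routes of carbon were described from their own lists. Of 15 TCA cycle genes 13 were measured, and 12 of the 13 lay higher with beta-TCP at day 4, with a median of 0.61 beside 0.07 for all genes and 0.37 for the well expressed ones. At days 7 and 14, 10 of the 13 lay lower, with medians of -0.25 and -0.37, beside -0.15 and -0.42 for the well expressed genes. FH, fumarase, differed by 0.95, 0.05 and -0.37 at days 4, 7 and 14. DLST, a subunit of the oxoglutarate dehydrogenase complex, differed by 0.43, -0.28 and -0.77, and OGDH, the subunit that binds oxoglutarate, by -0.37, -0.09 and -0.14. The TCA list thus stood on the other side of 0 from the glycolytic enzymes at day 4.

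The pentose phosphate pathway, which branches from glucose 6-phosphate and supplies NADPH, had 4 of 7 genes measured. All 4 lay lower with beta-TCP at day 7, with a median of -0.92, and the medians at days 4 and 14 were -0.29 and -0.79. TKT, transketolase, differed by -0.36, -1.48 and -0.80. PGD, the NADPH-forming phosphogluconate dehydrogenase, differed by -0.85, -1.14 and 0.64, and PGLS, which acts just before it, by -0.23, -0.69 and -1.32. These differences have no replicate check.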
